A study of Mus musculus with 8 samples.

Results

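In the subpallium of mouse embryos, 1160 OTX2 binding regions were found by exactly 2 of 3 chromatin immunoprecipitation sequencing (ChIP-seq) libraries and missed by the other one. They were 5.13% of the 22629 merged regions that the 3 OTX2 peak lists gave in all. The regions were chosen by the presence of peaks in the lists: OTX2 peaks sharing at least 1 bp were joined, and a region was kept where it held peaks of exactly 2 lists and no peak of any control list. Replicates 1 and 3 shared 794 of them without replicate 2 (pair 1+3), replicates 2 and 3 shared 361 without replicate 1 (pair 2+3), and replicates 1 and 2 shared 5 without replicate 3 (pair 1+2). These counts follow from the rule and are given as a description.

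All libraries came from wild-type CD-1 embryos at embryonic stage E12.5, with no treatment named, with tissue pooled over embryos. The tissue was the septum with the medial and lateral ganglionic eminences, named basal ganglia and septum in the sample labels. The 3 OTX2 libraries were set against 3 input libraries (chromatin without antibody) and 2 libraries made with normal goat IgG in place of the OTX2 antibody, and the experiment of replicate 3 had no IgG library. Each deposited list gives positions and a rank counted from 1, and rank 1 is read here as the best. List 1 held 1848 peaks, list 2 1298 and list 3 22325 (numbered by replicate), the control lists 138 to 235, and read depth is unknown. The lists hold no expression values, so the tissue was not checked against marker genes.

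OTX2, a bicoid-related homeodomain protein that binds DNA and regulates transcription, is needed to form and pattern the forebrain and midbrain. The medial ganglionic eminence gives rise to many cortical interneurons and pallidal neurons, the lateral ganglionic eminence to striatal neurons, and the septum joins the basal forebrain to the limbic system. ChIP-seq recovers DNA fragments bound by such a factor, and a peak is a stretch where a peak caller found more fragments than its background. Whether a site missing from a list was unbound in that tissue sample or fell short of the caller's threshold there cannot be told apart from the lists.

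The regions of exactly 2 lists came mostly from the middle and the end of the shorter lists. In list 1 their peaks had a median rank of 1186, and 558 of the 794 regions of pair 1+3 (70.3%) ranked in the worse-ranked 50% of that list. In list 2 the median rank was 925, and 288 of the 361 regions of pair 2+3 (79.8%) fell in the worse-ranked 50%. Regions of all 3 lists, of which there were 789, had median ranks of 504 in list 1 and 455 in list 2. Peaks found in 1 list alone ranked later still, with medians of 1708 in list 1 and 1238 in list 2. The pairs thus lay between the regions of all 3 lists and the peaks of 1 list. The 3 libraries that chose the regions are the only replicates, so no test was run over regions. The 95% intervals below are exact (Clopper-Pearson), count regions as independent and cover counting error only.

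Along list 1 the share of peaks that belonged to pair 1+3 was 2.7% (95% interval 0.883 to 6.19%) in the best-ranked 10%. It was 50.3% (42.8 to 57.7%) in the fifth 10% and 70.1% (62.9 to 76.6%) in the eighth. In the last 10% it was 37.8% (30.8 to 45.2%), where 58.4% of peaks were in list 1 alone. Along list 2 the share that belonged to pair 2+3 was 1.54% (0.187 to 5.45%) in the best-ranked 10%, 54.6% (45.7 to 63.4%) in the ninth 10% and 45.4% (36.6 to 54.3%) in the last. In both lists the pair was therefore rare at the top and most frequent towards the end. The intervals of the eighth and the last 10% of list 1 were apart, while those of the ninth and the last 10% of list 2 overlapped. The eighth and ninth steps are the highest of their lists, and the fall was not tested.

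**Figure D1:**
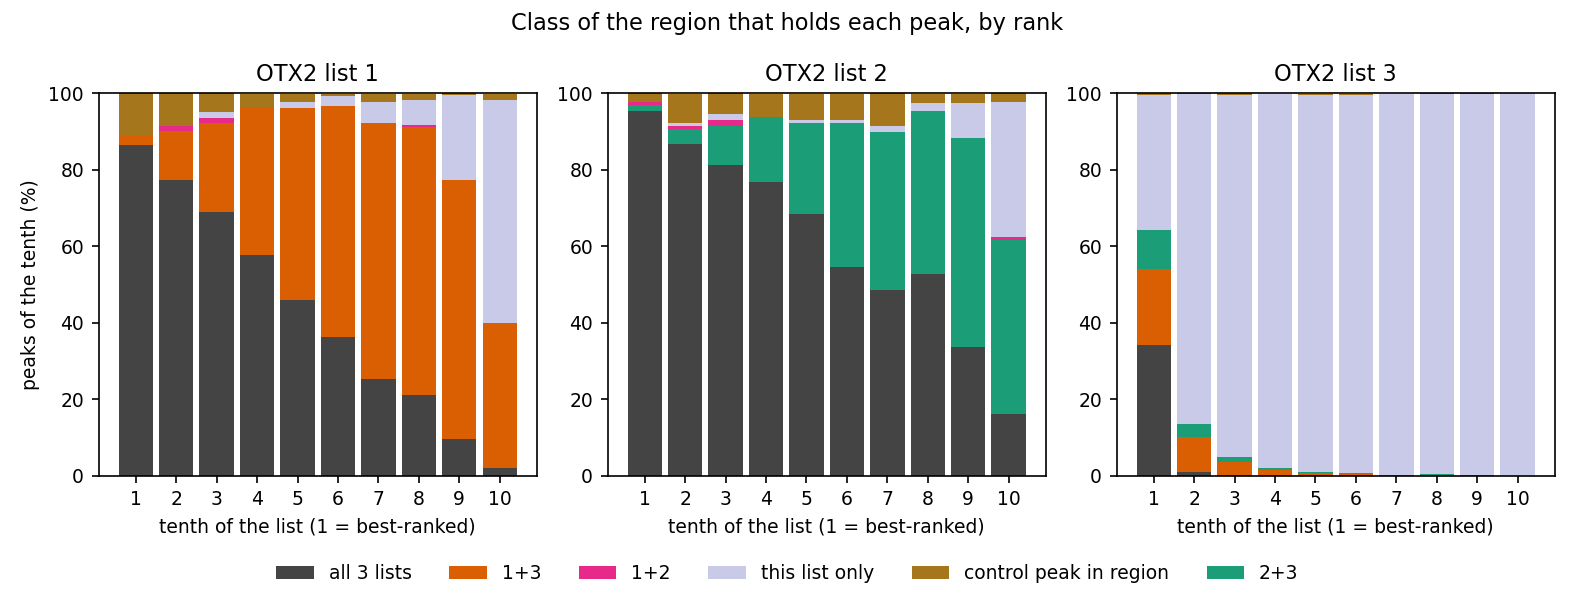
Share of peaks (y axis, %) of each OTX2 list by the class of the region that holds them, in steps of 10% of the list from best-ranked to worst-ranked (x axis), with 1 panel per list. Pair 1+3 grows from 2.7% to 70.1% of list 1 peaks by the eighth step, pair 2+3 from 1.54% to 54.6% of list 2 peaks by the ninth, and in list 3 both pairs lie mainly in the first step.

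Relative to its length, the same regions ranked near the top of the long list 3. The median list 3 rank was 1906 for pair 1+3 and 1721 for pair 2+3, and 87.4% and 87.5% of the regions lay in its best-ranked 25%. As plain ranks these medians were later than those in the shorter lists, 1186 in list 1 and 925 in list 2. List 3 ranks passed the length of list 2 for 527 of 794 regions of pair 1+3 and 227 of 361 of pair 2+3. The interquartile ranges of the rank percentile (rank divided by list length) were 4.74 to 15.9% for pair 1+3 and 4.51 to 14.4% for pair 2+3, so the pairs held almost the same place in list 3. Regions of all 3 lists had a median list 3 rank of 456.

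Bands of list 3 rank show where the pairs lay, and in none were they the largest class. Of its 100 best peaks, 98 were in all 3 lists, 2 in pair 1+3 and none in pair 2+3. In ranks 501 to 1000 the pairs held 40% of peaks and regions of all 3 lists 41.6%. Over ranks 1001 to 2000 the pairs held 35.7%, regions of all 3 lists 12.2% and list 3 alone 51.5%. From rank 4001 to 8000 the pairs held 4.15%, and from rank 16001 on 0.142%, which were 9 peaks. Pair 1+3 outnumbered pair 2+3 in each band, by 1.83 to 2.61 times between ranks 101 and 8000.

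Within a pair the ranks in the 2 lists went together. Spearman's rho across regions was 0.58 for pair 1+3 (n = 794) and 0.58 for pair 2+3 (n = 361), against 0.75 and 0.76 for lists 1 and 3 and lists 2 and 3 at the 789 regions of all 3 lists. Regions of a pair share the same 2 libraries, so these values describe the lists and carry no p.

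Regions that list 2 lacked also ranked later in list 3 than regions of all 3 lists from the same 25% of list 1. Among regions in the best-ranked 25% of list 1, the median list 3 rank was 658 (interquartile range 422 to 1106) for the 47 of pair 1+3 and 214 (97.8 to 394) for the 368 of all 3 lists. In the last 25% of list 1 it was 3534 (2199 to 6056) for the 260 of pair 1+3 and 1310 (898 to 1976) for the 37 of all 3 lists. In these 2 steps of list 1 the interquartile ranges did not overlap. In the 2 middle steps the order was the same but the ranges overlapped, with medians of 1103 (745 to 1897) against 628 (408 to 994) in the second and 1829 (1154 to 3068) against 918 (626 to 1594) in the third. Pair 2+3 was ordered the same way, with median list 3 ranks of 540 against 168 in the best-ranked 25% of list 2 (13 and 288 regions) and 2742 against 1299 in the last 25% (159 and 94 regions). Its medians were 1094 against 521 in the second 25% of list 2 and 1448 against 879 in the third. The interquartile ranges were apart in the best-ranked 25% (358 to 681 and 74.8 to 312) and overlapped in the other 3 steps, as in the last (1650 to 5126 and 800 to 1854). Ranks were not matched within a 25% step, and the pair lay later in the best-ranked step of list 1. There, ranks 1 to 185 held 5 peaks of pair 1+3 and 160 of regions of all 3 lists. Ranks 186 to 370 held 24 and 143. How much of the order in list 3 goes with these later list 1 ranks was not tested. The order in list 3 was not used to split a pair from the regions of all 3 lists. List rank also goes with peak width, and no test was run.

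**Figure D2:**
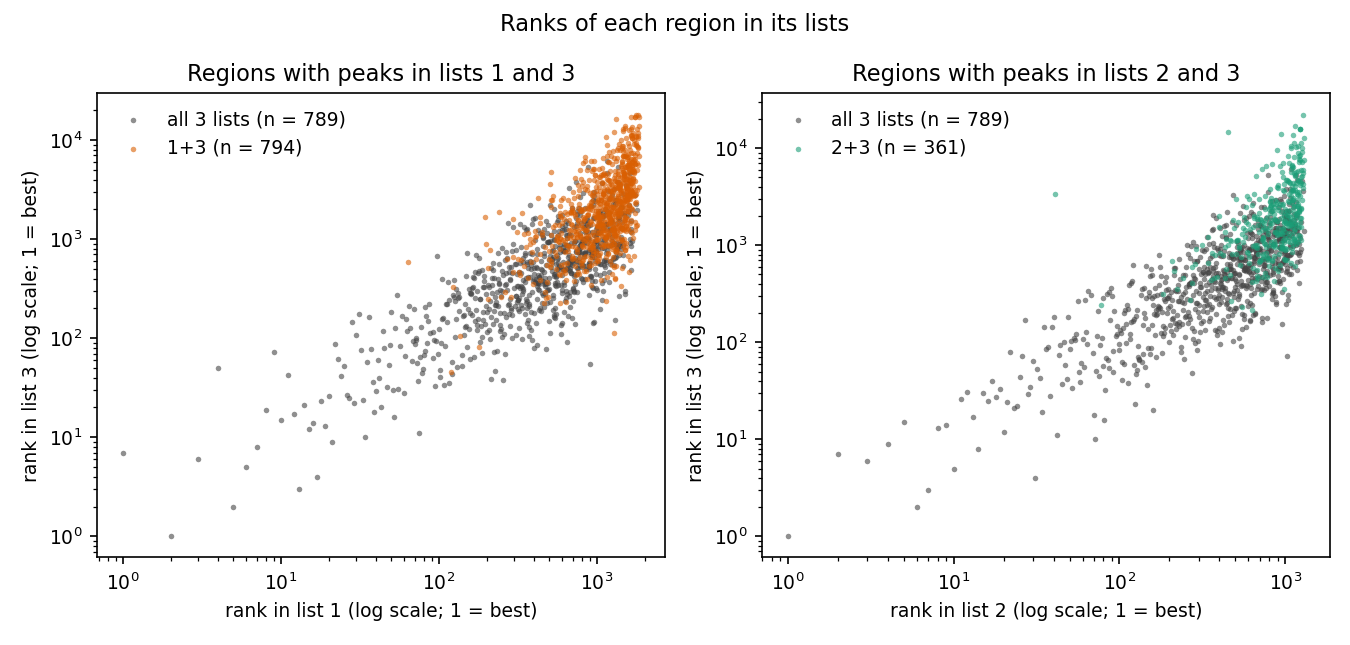
Rank in list 3 against rank in list 1 (left) or list 2 (right), both axes logarithmic with 1 as the best rank and 1 point per region; coloured points are the pair and grey points the 789 regions of all 3 lists. The pairs fill the upper right of each panel, with median ranks of 1186 and 1906 for pair 1+3 and 925 and 1721 for pair 2+3.

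The regions of pair 1+3 with the best mean rank percentile were ranked 64 to 263 in list 1 and 46 to 891 in list 3 (10 regions, chromosome 18 passed over). First among them was a region at chr19:14580994-14584002 (mm9), 3009 bp wide, ranked 64 in list 1 and 591 in list 3. The nearest list 2 peak lay 8.92 kb away and was ranked 416 there. Next came chr6:52774349-52775691, which took rank 119 in list 1 and rank 46 in list 3, the best list 3 rank in the pair, and list 2 had no peak within 799 kb of it. Then chr4:154322281-154324320, took ranks 123 and 328. Also on chromosome 4, chr4:29062512-29063765 took ranks 178 and 81, and the nearest control peak lay 47 kb away. These 4 regions were picked by their mean rank percentile over both lists, so their good ranks are no separate result.

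The remaining 6 regions of that group lay on 6 other chromosomes. The region chr8:12126049-12128230 took ranks 205 and 248, with a list 1 peak of 1193 bp that was far wider than the pair's median of 168 bp. On the X chromosome, chrX:56493792-56495233 took ranks 203 and 515, and list 2 had no peak within 6851 kb. Both lists gave chr14:23563985-23566066 a similar rank, 247 and 261. Ranks were 198 and 891 at chr9:74932581-74933843 and 209 and 769 at chr13:63615464-63616860. They were 263 and 295 at chr15:101021743-101022998. Among these 6, the ranks in lists 1 and 3 were closest on chromosome 14 and farthest apart on chromosome 9.

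Pair 2+3 had 13 members (3.6%) in the best-ranked 25% of its narrow list, against 47 (5.92%) for pair 1+3. Its 10 best regions off chromosome 18 were ranked 41 to 287 in list 2 and 243 to 3384 in list 3. The first lay at chr5:10591882-10593332 and was ranked 77 and 243, with the nearest list 1 peak 681 kb away. Next among those named, chr2:71373410-71376733, took rank 41 in list 2, the best list 2 rank in the pair, but only 3384 in list 3. It was 3324 bp wide, and another OTX2 region had its centre 19.4 kb away. In the scatter of ranks it is the point that stands alone above the others at the left of the list 2 panel. Ranks in lists 2 and 3 were 221 and 358 at chr4:126279214-126280387, 213 and 540 at chr12:37520164-37521288, and 207 and 681 at chr6:138702515-138703871.

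Of the other 5 regions of this group, 2 lay on chromosome 2. The region chr2:124295797-124297034 took ranks 242 and 458. The region chr2:28635288-28636471 took ranks 274 and 411 and had the closest list 1 peak of the group, 16.7 kb away and ranked 283. At chr9:79453445-79454572 the ranks were nearly equal, 265 and 274. They were 272 and 597 at chr3:17516040-17517424 and 287 and 637 at chr16:30022715-30023755. Apart from the region on chromosome 2 with list 3 rank 3384, the 10 regions lay within the first 681 peaks of list 3.

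Some regions were placed very differently by their 2 lists, and those named here were picked after their values were seen. The region chr13:98526662-98527515 took rank 454 in list 2 and rank 14544 in list 3. In contrast, chr15:82841439-82842430 took rank 1278 in list 1 and rank 113 in list 3, and the nearest list 2 peak, ranked 1262, lay 5.49 kb away. Rank 630 in list 2 stood against rank 214 in list 3 at chr9:60734074-60735416. A region nearly always had the better percentile in list 3, by far the longest list: this held for 793 of 794 regions of pair 1+3 and 358 of 361 of pair 2+3. It is not particular to the pairs. Regions of all 3 lists did the same, at 788 of 789 against list 1 and 789 of 789 against list 2.

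Among the regions of exactly 2 lists, the 5 of pair 1+2 were by definition the only ones that the long list missed. The best lay at chr7:52148105-52148437 and was ranked 269 in list 1 and 98 in list 2, and the nearest list 3 peak, ranked 19339, was 2.44 kb away. The region chr13:84199174-84199812 took ranks 473 and 219 and lay 1.27 kb from a list 3 peak ranked 239, which ran from 84201080 to 84207404. The region chr9:35208524-35208882 took ranks 259 and 372 and lay 0.889 kb from a list 3 peak ranked 197. On chromosome 1, chr1:170500323-170500579 took ranks 389 and 309, and the nearest list 3 peak was 27.6 kb away. The last, chr1:90156146-90156295, took ranks 1336 and 1186, and a control peak lay 0.427 kb from it. Of the 5 regions, 2 therefore neighboured some of the best peaks of list 3 and 4 had rank percentiles between 14% and 25.6% in list 1 and between 7.55% and 28.7% in list 2.

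Control peaks met pair 1+2 far more often than the other pairs. Before regions with control peaks were left out, pair 1+2 held 19 regions, of which 14 (73.7%, 48.8 to 90.9%) carried an input or IgG peak. The same was true of 5 of 799 regions of pair 1+3 (0.626%, 0.203 to 1.45%), 4 of 365 of pair 2+3 (1.1%, 0.299 to 2.78%) and 17 of 806 regions of all 3 lists (2.11%, 1.23 to 3.36%). Each of these 3 classes holds a list 3 peak. Control peaks were also frequent where list 3 had none, at 21 of 203 regions of list 1 alone (10.3%). They met 15 of 83 regions of list 2 alone (18.1%), but 19 of 20354 of list 3 alone (0.0933%). A high share was therefore not particular to pair 1+2, although its share was the highest. Of the 14 regions of pair 1+2, 13 met an input peak and 13 an IgG peak, and 7 lay on chromosome 2. Those regions are not members, and the comparison describes the lists the rule starts from. Among the members, 2 of pair 1+3, 1 of pair 2+3 and 1 of pair 1+2 lay within 1 kb of a control peak.

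The edge of the rule is an overlap of 1 bp. Off chromosome 18 the smallest overlap in pair 1+3 was 99 bp, at chr5:120754225-120755199 (ranks 1714 and 4609), and in pair 2+3 it was 58 bp, at chr17:85833010-85833837 (ranks 1226 and 15818). The closest peaks just outside were 58 bp apart for lists 1 and 3, at chr9:49553519-49554710 (ranks 1427 and 5559). They were 88 bp apart for lists 2 and 3, at chr9:92903245-92903998 (ranks 1255 and 21521). For lists 1 and 2 the smallest overlap was 124 bp and the closest peaks outside had 1 bp between them, at chr8:48325611-48325940 (ranks 1124 and 850). Of 177 peaks in list 1 alone off chromosome 18, 11 had a peak of list 3 alone within 1 kb, and of 64 in list 2 alone, 4 did.

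The list that lacked a region seldom had a peak close by. For pair 1+3 the nearest list 2 peak was at a median distance of 394 kb, and it lay within 1 kb at 1 region, within 5 kb at 16 (2.02%, 1.16 to 3.25%) and within 10 kb at 36 (4.53%, 3.2 to 6.22%). For pair 2+3 the nearest list 1 peak was at a median of 225 kb and never closer than 2321 bp. It lay within 5 kb at 4 regions (1.11%, 0.303 to 2.81%) and within 10 kb at 15 (4.16%, 2.34 to 6.76%). Well-ranked regions of list 3 alone (its best-ranked 25%, 3765 regions) had a list 2 peak within 10 kb at 2.92% (2.41 to 3.51%) and a list 1 peak at 4.86% (4.2 to 5.6%). The intervals overlapped those of the pairs.

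**Figure D3:**
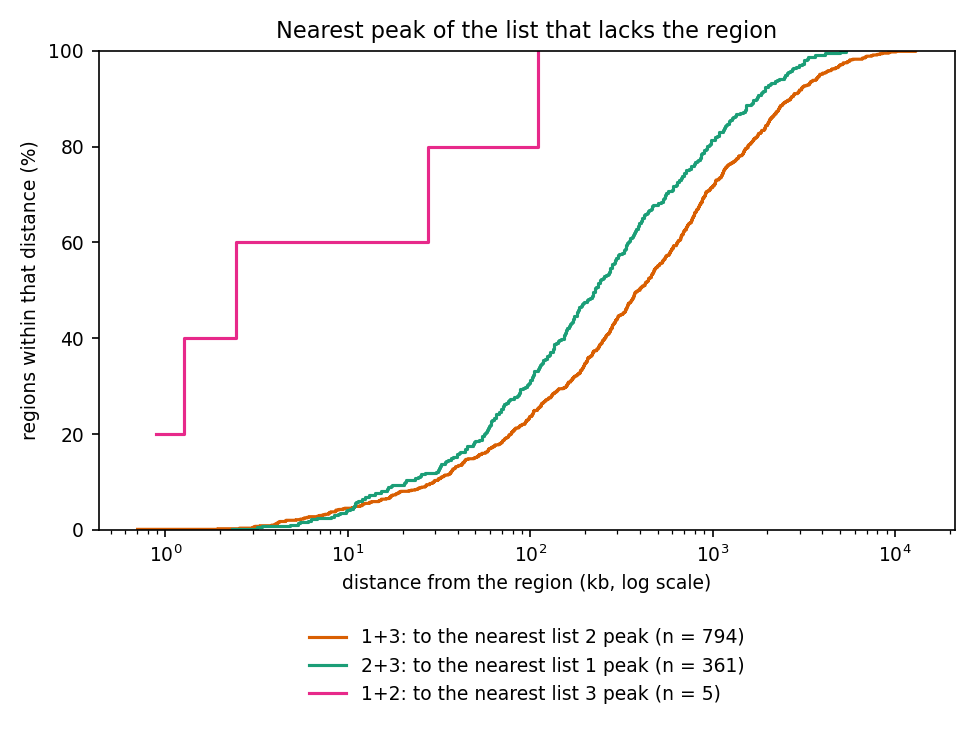
Share of regions (y axis, %) with a peak of the list that lacks them within a given distance in kb (x axis, logarithmic), 1 line per pair. Within 10 kb the lines of pairs 1+3 and 2+3 reach 4.53% and 4.16%, and 3 of the 5 regions of pair 1+2 have a list 3 peak within 5 kb.

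The narrow peak of a pair sat inside the wide one. The list 1 peak lay wholly within the list 3 peak at all 794 regions of pair 1+3, and the list 2 peak at 360 of 361 regions of pair 2+3. Median peak widths were 168 bp in list 1 and 1252 bp in list 3 for pair 1+3, and 157 bp in list 2 and 1206 bp in list 3 for pair 2+3. The centres of the 2 peaks were a median of 98 bp apart in pair 1+3 (interquartile range 47.1 to 207 bp) and 93.5 bp apart in pair 2+3 (43 to 210 bp), which is 8.48% and 8.43% of the width of the wider peak. At 402 regions of pair 1+3 (50.6%, 47.1 to 54.2%) and 193 of pair 2+3 (53.5%, 48.2 to 58.7%) the centres agreed within 100 bp. At regions of all 3 lists the share was 44% (40.5 to 47.5%) for lists 1 and 3 and 43% (39.5 to 46.5%) for lists 2 and 3, where the list 3 peaks had a median width of 1585 bp. Multiple peaks of 1 list within a region were rare, at 2 regions of pair 1+3 and none of the other pairs.

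**Figure D4:**
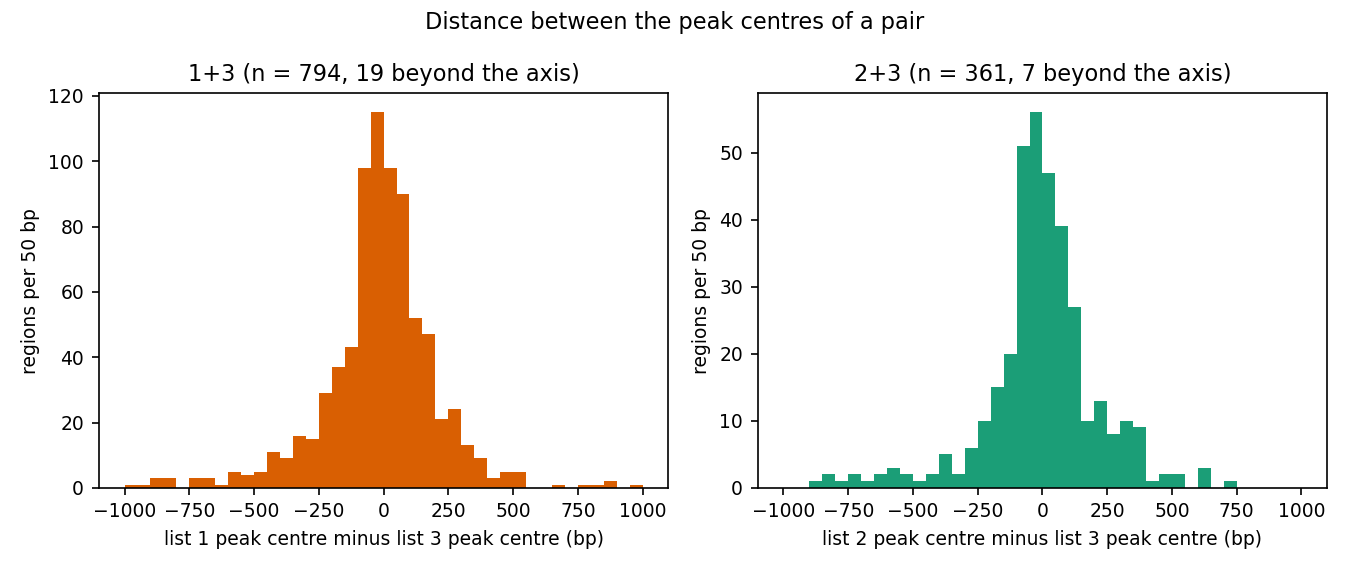
Number of regions (y axis, per 50 bp) by the distance of the narrow peak's centre from the list 3 peak's centre in bp (x axis), for pair 1+3 (left) and pair 2+3 (right). Both distributions centre near 0, with medians of the absolute distance of 98 and 93.5 bp.

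Regions of exactly 2 lists were spread over the genome, and most had no other region of 2 or 3 lists within 50 kb. The 20335 regions of list 3 alone were not counted as neighbours. The window counts below were not set against an even spread. They occupied 809 windows of 1 Mb, 577 of them with a single such region and 540 without any region of all 3 lists. Another region of 2 or 3 lists had its centre within 50 kb of 254 of the 1160 regions (21.9%, 19.5 to 24.4%). A region of all 3 lists was that close to 10.9% (9.21 to 12.9%) of them, and another region of exactly 2 lists to 13.1% (11.2 to 15.2%). The share with either kind was 22.3% for pair 1+3 and 20.8% for pair 2+3. Regions of all 3 lists had such a neighbour at 29.2% (26 to 32.5%), and list 3 regions seen in no other list at 15.2% (14.7 to 15.7%). Over the 1790 regions of list 3 alone with rank 3448 or better, which 75% of the members with a list 3 peak reached, the share was 21.4% (19.5 to 23.4%), whose interval overlaps that of the members.

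Linking regions at 50 kb gave 209 groups of 2 or more, of which 58 held regions of exactly 2 lists only, 110 held both kinds and 41 held regions of all 3 lists only. Pairs 1+3 and 2+3 met in 31 groups. Off chromosome 18, 2 groups held at least 4 regions of exactly 2 lists. One lay at chr4:153845605-153898433, spanned 52.8 kb and held 5 regions, none of them in all 3 lists. Its 3 regions of pair 1+3 were ranked 759, 1148 and 842 in list 1, and its 2 regions of pair 2+3 were ranked 699 and 867 in list 2. All 5 lay between ranks 587 and 3236 of list 3. That lists 1 and 2 held different peaks here and list 3 held them all follows from the rule, as the group holds only pairs 1+3 and 2+3.

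The other group lay at chr3:34309744-34467707, spanned 158 kb and held 7 regions. Here 2 regions in all 3 lists, ranked 372 and 389 in list 3, were accompanied by 3 regions of pair 1+3 (list 1 ranks 1150, 1135 and 1185) and 2 of pair 2+3 (list 2 ranks 854 and 1056). The windows of 1 Mb with the most regions of exactly 2 lists, 6 each, began at 34000001 on chromosome 3, at 153000001 on chromosome 4 and at 112000001 on chromosome 5. Another 6 windows held 5 each. Among these, the window on chromosome 12 from 110000001 held no region of all 3 lists: its 2 regions of pair 1+3 were ranked 1164 and 1521 in list 1, and its 3 of pair 2+3 were ranked 1054, 1105 and 1269 in list 2.

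On the 19 autosomes the density ranged from 0.329 to 0.625 regions of exactly 2 lists per Mb, with a median of 0.482. Chromosome 13 was the densest, and chromosomes 6 and 17 were the sparsest. Chromosome X held 20 of the 1160 regions (1.72%, 1.06 to 2.65%), 14 of pair 1+3 and 6 of pair 2+3, while its extent was 6.29% of the total. Its density was 0.124 per Mb, below that of every autosome. The share on chromosome X was 0.634% (0.206 to 1.47%) for regions of all 3 lists and 1.7% (1.52 to 1.88%) for list 3 alone. The number of pair 1+3 regions per pair 2+3 region ranged from 1.64 to 3.67 over the autosomes, with a median of 2. It was 3.38 on chromosome 2 (81 and 24 regions) and 1.69 on chromosome 1 (61 and 36 regions).

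The sizes of the pairs depended on the lengths of the lists. Pair 1+3 had 2.2 times as many regions as pair 2+3, while list 1 had 1.42 times as many peaks as list 2. As shares of the narrow list, pair 1+3 held 43.1% of list 1 peaks and pair 2+3 27.8% of list 2 peaks. Of the 794 regions of pair 1+3, 318 (40.1%) had a list 1 rank beyond 1298, the length of list 2. With list 1 cut to its best 1298 peaks, pair 1+3 held 476 regions and pair 2+3 419, a ratio of 1.14. Pair 2+3 then gained regions that had been in all 3 lists, which fell from 789 to 731. This cut was chosen after seeing the data.

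Membership also depended on the extent given to the peaks. With every peak of every list set to 200 bp at its centre, which widens most narrow peaks of the pairs and shortens the wide ones, 580 of the 794 regions of pair 1+3 (73%) and 265 of the 361 of pair 2+3 (73.4%) stayed in their pair, and the others split into peaks of 1 list each. Pair 1+2 grew from 5 to 221 regions. At 205 regions of all 3 lists the windows of lists 1 and 2 still met while that of list 3 did not.

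**Figure D5:**
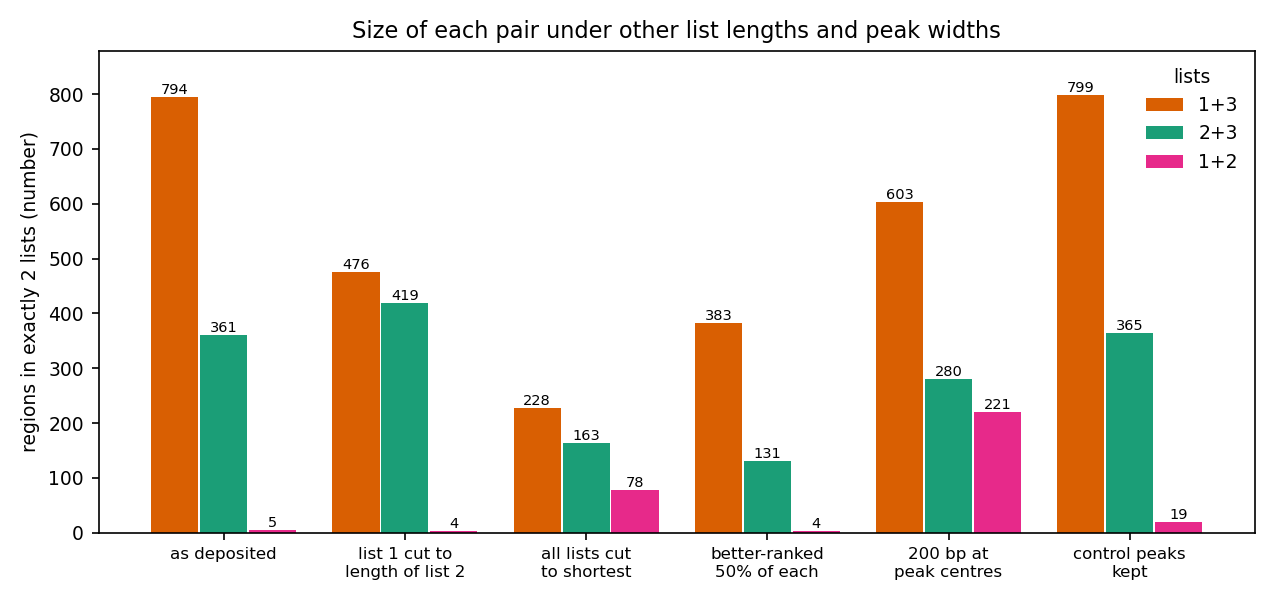
Number of regions of exactly 2 lists (y axis, from 0) for each pair, as deposited and under 5 other settings (x axis). Pairs 1+3 and 2+3 come to 476 and 419 when list 1 is cut to the length of list 2, and pair 1+2 rises from 5 to 221 when all peaks are set to 200 bp.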

How the data were processed

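The authors deposited 1 peak list per library (3 OTX2, 3 input, 2 IgG), each with chromosome, start, end and rank. Positions are in mm9, written here 1-based. Per the submitters' processing notes, BWA and MACS 1.4 were used; the control, the threshold and the quantity ranked were not given in the sources used here. Per the file headers, both lists of replicate 3 carry a tag with the word score that the other 6 lack; whether its peaks were called with other settings is not known. All but the 5 regions of pair 1+2 rest on it, and only those 5 are a value within replicates 1 and 2. Whether each experiment used its own litters is not stated in the labels.

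Peaks were joined and counted in Python 3.11.15 (numpy 2.4.6, scipy 1.17.1); the code was tested on simulated peaks, and bedtools 2.31.1 gave the same counts for all 7 classes. A region's rank in a list is that of its best peak. Members and rules were chosen with earlier results of these data known. Regions named are the 10 with the best mean rank percentile in pairs 1+3 and 2+3, all of pair 1+2, the edges of the rule and the 5 windows of 1 Mb with most regions, with ties; regions on chromosome 18 are counted but not named. The reference tables describe GRCm38, so nearest genes and the sequence windows that had been planned were not analysed here.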

Additional observations from a re-analysis of the deposited data

How the results depend on the processing

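Requiring an overlap of 50% of the shorter peak, joining peaks within 1 kb, leaving out regions within 1 kb of a control peak, and cutting list 3 to its better-ranked 25% each left the count of every pair and the total of 1160 within 1.5 times. Other settings moved counts further. The better-ranked 50% of each list gave 383 regions for pair 1+3, 131 for pair 2+3 and 518 in all. Of the members as deposited, 236 of pair 1+3 and 72 of pair 2+3 were still in their pair. Cutting every list to the shortest gave 228, 163, 78 for pair 1+2 and 469 in all. Here 227, 134 and 4 of the members as deposited were still in their pair, so many regions under these cuts were not members. Cutting list 1 alone to the length of list 2 gave 476 for pair 1+3. With 200 bp windows pair 1+2 had 221 regions, and with control peaks kept it had 19. The list that lacks a region was also ignored. Without replicate 2, lists 1 and 3 gave 1583 regions, and without replicate 1, lists 2 and 3 gave 1150. Both counts add the 789 regions of all 3 lists by construction. Without replicate 3, lists 1 and 2 gave 759, fewer than those 789. Some regions of all 3 lists hold list 1 and list 2 peaks that were joined only through a list 3 peak. The share with a neighbour was 5.34% within 10 kb and 35.1% within 100 kb. Taking the mean rank of a list's peaks left both rank correlations at 0.58, and with it or the 50% overlap the median rank percentiles moved by at most 0.1 percentage points. Measured between centres, the share within 10 kb of a peak of the missing list was 4.03% for pair 1+3 and 3.05% for pair 2+3, inside the 95% intervals given for it; the offset as a share of peak width stands beside the offset in bp. No paired analysis was possible because no result comes from a test between groups. Depth is unknown, and a region missing from a list was not called there but is not shown to be unbound.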

Other observations

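At like list 3 rank the width of the list 3 peak differed little between the pairs. In ranks 1001 to 2000 the median width was 1316 bp for pair 1+3 (n = 236, interquartile range 1113 to 1664 bp), 1243 bp for pair 2+3 (n = 121, 1011 to 1585 bp), 1434 bp for regions of all 3 lists (n = 122, 1172 to 1776 bp) and 1215 bp for list 3 alone (n = 515, 1018 to 1524 bp). In ranks 1 to 500 regions of all 3 lists were wider, with a median of 1728 bp against 1416 bp for pair 1+3 and 1394 bp for pair 2+3. All these interquartile ranges overlapped, and no test was run.

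Narrow peak widths differed most in the best-ranked 25%. In the best-ranked 25% of list 1 the median list 1 peak width was 317 bp for pair 1+3 and 368 bp for regions of all 3 lists, and in the next 25% it was 211 and 234 bp. It was 162 and 163 bp in the third 25% and 148 and 156 bp in the last. Along list 2 the medians for pair 2+3 and regions of all 3 lists were 258 and 336 bp in the best-ranked 25%, 210 and 216 bp in the second, 160 and 165 bp in the third and 151 and 153 bp in the last. No test was run.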
